A study of Mus musculus with 24 samples.

Results

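The Bcl2 family decides at the mitochondrion whether a cell lives or dies. Pro-survival members such as Bcl2, Bcl-xL (encoded by Bcl2l1), Mcl1 and A1 (encoded in the mouse by the Bcl2a1 copies) bind and restrain the pore formers Bax and Bak1. Proteins with a BH3 domain only, among them Bim (encoded by Bcl2l11), Puma (encoded by Bbc3) and Noxa (encoded by Pmaip1, which binds Mcl1 and A1), take up the pro-survival members or act on the pore formers. Dendritic cells are short-lived and are known to depend on members of this family.

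The RNA of 10 family genes was followed by name, 10 of 24421 gene symbols in the count files. The pro-survival members were Bcl2, Bcl2l1, Mcl1, Bcl2a1b and Bcl2a1d. The pro-death members were Bcl2l11, Bbc3, Pmaip1, Bax and Bak1. All 10 passed the filter on low counts, as did 13166 genes in all.

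Conventional dendritic cells of the cDC2 and cDC1 subsets were sorted from spleens of untreated C57Bl/6 mice aged 6 to 12 weeks and sequenced as bulk RNA in 24 libraries. In the deletion line, CD11cCRExZeb2fl/fl mice lose the floxed part of Zeb2, a transcription repressor, in CD11c-expressing cells. In the transgene line, CD11cCRExR26-Zeb2Tg/Tg mice switch on a Zeb2 transgene placed in the Rosa26 locus in the same cells. The Cre- littermates carried the floxed alleles or the silent transgene without Cre, and the mice of each line, Cre+ and Cre-, shared those alleles. Each subset and line had 4 Cre+ and 2 Cre- libraries, which makes 8 groups. The driver acts in CD11c+ cells whatever their subset, and nothing in the labels ties a replicate to its own mouse. P-values here weigh a difference of group means against the spread among these libraries, which may not be the spread among mice.

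Gene totals ran from 21972763 to 36094786 counts per library, and 13396 to 14260 genes had at least 1 count. All values below are CPM, the reads of a gene scaled to a common library size with TMM factors, unless stated. The subset labels held. The 8 cDC1 markers summed to 146 to 332 CPM in cDC2 libraries and 4091 to 8349 CPM in cDC1 libraries. The 8 cDC2 markers summed to 2185 to 2892 CPM in cDC2 libraries and 210.1 to 471 CPM in cDC1 libraries. Between Cre- libraries of the subsets, 7 of the 8 cDC2 markers were higher and 1 was lower in cDC2 (edgeR adjusted p under 0.05). Zeb2 fell in cDC2 with the deletion (35.8 ± 4.83 CPM in Cre+, n = 4, and 154 ± 31.1 CPM in Cre-, n = 2; edgeR adjusted p = 5.13e-05). It rose in cDC1 with the transgene (44.2 ± 2.07 CPM in Cre+ and 2.81 ± 0.631 CPM in Cre-, adjusted p = 3.88e-07). In cDC2 with the transgene it averaged 153 ± 4.72 CPM in Cre+ and 104 ± 0.310 CPM in Cre- (adjusted p = 0.618). In cDC1 with the deletion Zeb2 was scarce on both sides, at 0.457 to 2.67 CPM in Cre+ and 0.488 to 2.56 CPM in Cre- libraries (adjusted p = 1). RNA of early response and heat shock genes was abundant in all libraries: 12 such genes, listed after the member values had been seen, summed to 15140 to 27411 CPM in cDC2 and 8279 to 17452 CPM in cDC1.

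Of the 4 A1 genes on mouse chromosome 9, 3 lie close together and are nearly identical, so their sequences bear on how far each count can be trusted. In GRCm38, Bcl2a1b spans chr9:89199209-89207827 on the plus strand, Bcl2a1d chr9:88723285-88731914 on the minus strand and Bcl2a1a, another copy outside the 10 members, chr9:88956900-88962419 on the plus strand. The other one, Bcl2a1c, also no member, lies apart at chr9:114330135-114330578, has a shorter coding sequence of 387 bases and had 3.21 to 6.50 CPM. The coding sequences of the 3 near-identical copies are 519 bases long in GENCODE vM21. Bases 1 to 75 of each, counted from the A of the start codon, hold 6 of the 12 positions at which the 3 copies differ, and are shown because they are what a read of this length can tell apart. Capitals mark the positions that differ.
Bcl2a1b: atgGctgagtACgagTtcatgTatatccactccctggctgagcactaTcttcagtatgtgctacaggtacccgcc
Bcl2a1d: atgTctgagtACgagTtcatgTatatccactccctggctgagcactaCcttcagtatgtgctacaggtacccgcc
Bcl2a1a: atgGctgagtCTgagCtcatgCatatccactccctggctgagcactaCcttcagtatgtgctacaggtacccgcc

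Over the whole coding sequence, Bcl2a1b and Bcl2a1d were 98.8% identical, Bcl2a1b and Bcl2a1a 97.9%, and Bcl2a1a and Bcl2a1d 98.7%. The longest run shared by all 3 was 217 bases. Reads were 75 bases long. Of all 75-base windows along the transcripts, 56.5% were unique to Bcl2a1b, 32.4% to Bcl2a1d and 44.8% to Bcl2a1a, against 96.2% for Bcl2a1c. The counts of these 3 copies taken singly are therefore uncertain, and how the authors' counting treated reads shared by copies is not given in the sources used here.

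The 3 copies are alike upstream of their starts as well. A stretch that aligned among them and lay upstream of the first transcribed base of each was read from the RefSeq promoter table (GRCm38.p6) and is shown because these copies differed in direction between the subsets. Capitals mark bases that are not shared by all 3 copies.
Bcl2a1b (chr9:89199023-89199164, plus strand): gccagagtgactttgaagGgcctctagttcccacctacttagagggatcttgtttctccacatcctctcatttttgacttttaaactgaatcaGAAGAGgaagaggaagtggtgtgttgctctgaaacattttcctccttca
Bcl2a1d (chr9:88731915-88732050, minus strand): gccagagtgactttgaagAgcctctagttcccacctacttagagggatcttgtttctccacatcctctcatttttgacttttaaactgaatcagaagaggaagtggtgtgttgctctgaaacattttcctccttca
Bcl2a1a (chr9:88956714-88956855, plus strand): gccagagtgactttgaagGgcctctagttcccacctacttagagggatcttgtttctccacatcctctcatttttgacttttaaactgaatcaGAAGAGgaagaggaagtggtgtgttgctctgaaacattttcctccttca

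Over these 142 positions Bcl2a1a matched Bcl2a1b at all 142, while Bcl2a1d matched at 135, had 1 substitution and lacked the 6 bases GAAGAG of a short repeat. Each of the 3 promoters in the table, searched on both strands, held 1 match to GAGGAAGT, the core of sites for the Ets factor PU.1, which 3.20% of the 32851 promoters in the table held, and so did the promoter of Bak1. The letters CACCT, letters that ZEB factors are known to bind, occurred in 51.9% of all promoters on either strand and CACCTG in 20.2%, the first being part of the second. Each of the 3 copies held CACCT 1 time and no CACCTG. Bcl2 held CACCT 1 time, 1 of the 3 promoters of Bcl2l1 held it 2 times, and CACCTG stood 2 times and 1 time in 2 of the 3 promoters of Bbc3, which overlap. The promoters of Mcl1, Bcl2l11, Bax and Bak1 held neither. Promoters were in the table for 9 of the 10 members and not for Pmaip1.

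Compared per length of exons, the 10 members spanned a wide range of levels in control cells. In the Cre- libraries of both lines (n = 4 per subset), Pmaip1 stood at 518 CPM per kb in cDC2 and 280 CPM per kb in cDC1, the highest member in both. Bcl2a1b followed in cDC2 at 313 CPM per kb, against 156 CPM per kb in cDC1. Mcl1 had 267 CPM per kb in cDC2 and 247 CPM per kb in cDC1, and Bcl2a1d 106 and 104 CPM per kb in cDC2 and cDC1. These 4 genes were among the most abundant of 12676 genes with a length: Bcl2a1d, the lowest of the 4, stood at the percentile 97.0 in cDC2 and 96.6 in cDC1.

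The other members were scarcer. Bax had 37.2 CPM per kb in cDC2 and 57.6 CPM per kb in cDC1. Bbc3 (6.32 and 6.23 CPM per kb in cDC2 and cDC1), Bcl2l11 (5.62 and 9.33) and Bcl2l1 (5.07 and 6.23) were near the middle of all genes. Bcl2 itself stood at 1.73 CPM per kb in cDC2 and 1.47 CPM per kb in cDC1, at the percentiles 35.6 and 35.4, and Bak1 at 1.42 and 1.82 CPM per kb. So the abundant RNAs among the pro-survival members were Mcl1, Bcl2a1b and Bcl2a1d, and Bcl2 and Bcl2l1 were minor. Since shared windows can lose reads, the levels of the A1 copies per kb may be too low.

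**Figure D1:**
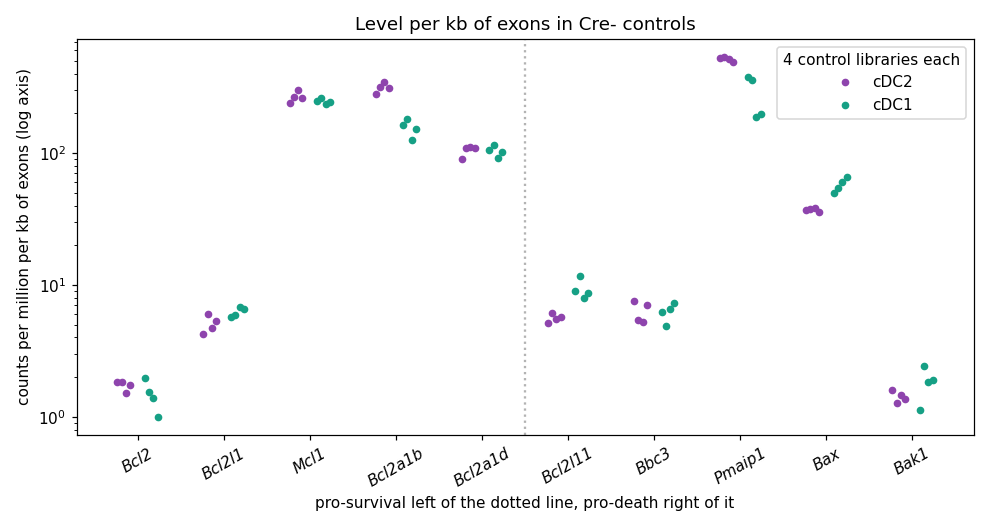
Level of each member in CPM per kb of exons (log axis) in the 4 Cre- libraries of each subset, 1 point per library, cDC2 left of cDC1. Pmaip1, Mcl1, Bcl2a1b and Bcl2a1d average above 100 CPM per kb in both subsets, and Bcl2 and Bak1 average below 2 CPM per kb.

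Summed per kb over the 5 members of each side, pro-survival RNA came to 617 to 935 in the 12 cDC2 libraries and 446 to 659.6 in the 12 cDC1 libraries, and pro-death RNA to 541 to 816 in cDC2 and 252 to 521 in cDC1. The ratio of the 2 sums within a library was 1.07 to 1.62 in cDC2 and 1.15 to 2.18 in cDC1, so the pro-survival sum was the larger in every library. These sums rest on few genes, Mcl1 and Bcl2a1b on one side and Pmaip1 on the other, and are given as a description.

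Between the subsets, control cDC2 held more Bcl2a1b and Pmaip1 and less Bax and Bcl2l11 than control cDC1. The comparison pooled the Cre- libraries of both lines, and 4 of the 10 members passed the test (edgeR's quasi-likelihood test, Benjamini-Hochberg adjusted p under 0.05), where 53.4% of all genes did (27.6% higher and 25.8% lower in cDC2). The share of members was thus no higher than that of all genes. In bulk RNA, fewer cells of a type and less RNA per cell cannot be told apart, here and in all results that follow.

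Among the pro-survival members, Bcl2a1b had 229.6, 259, 282 and 252 CPM in control cDC2, against 133, 148, 102 and 125 CPM in control cDC1. The ranges did not overlap, and Bcl2a1b was 2.02-fold higher in cDC2 (log2 fold change 1.01, SE 0.12, adjusted p = 1.51e-07). Its near twin Bcl2a1d did not pass, with 78.5, 94.9, 96.6 and 94.7 CPM in control cDC2 and 91.5, 99.2, 79.6 and 87.3 CPM in control cDC1 (log2 fold change 0.03, SE 0.10, adjusted p = 0.817). The third copy, Bcl2a1a, went the other way, at 39.4, 49.3, 45.5 and 40.6 CPM in control cDC2 and 88.2, 86.5, 53.6 and 65.4 CPM in control cDC1 (log2 fold change -0.72, SE 0.10, adjusted p = 3.18e-06). Counted as 1 gene, the 4 A1 copies were higher in cDC2 (log2 fold change 0.43, adjusted p = 0.0009). This sum would also depend on the mix of copies if shared reads were dropped. Unique windows made up 56.5% of Bcl2a1b and 32.4% of Bcl2a1d.

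The split among the copies can be read within each library, free of scaling between libraries. Of the counts of Bcl2a1a, Bcl2a1b and Bcl2a1d together, Bcl2a1b took 64.2 to 66.5% in the 12 cDC2 libraries and 42.6 to 49.4% in the 12 cDC1 libraries. Bcl2a1d took 20.8 to 24.5% in cDC2 and 29.2 to 34.1% in cDC1. Bcl2a1a took 9.65 to 14.1% in cDC2 and 20.3 to 28.2% in cDC1. For all 3 copies the subsets did not overlap, whatever the line or Cre. The cDC1 libraries of the transgene line stayed below the cDC2 range, with Bcl2a1b at 49.4, 48.5, 42.8 and 44.6% in Cre+ and 43.4 and 45.0% in Cre-. The cDC2 libraries with the deletion kept the cDC2 split, at 64.5, 65.1, 65.2 and 64.5% in Cre+ and 66.1 and 64.2% in Cre-. The summed level of the 3 copies did overlap between subsets, at 347 to 554 CPM in cDC2 and 236 to 396 CPM in cDC1.

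**Figure D2:**
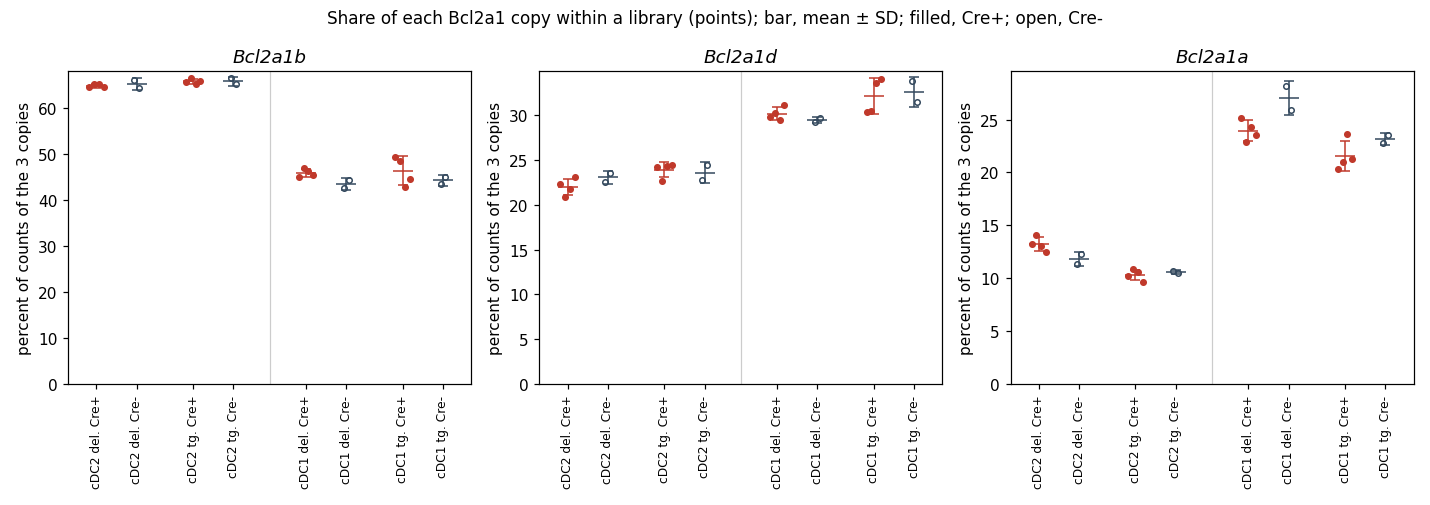
Share of the counts of 3 A1 copies taken by each copy within a library (percent), by group, with 1 point per library and the mean ± SD as a bar, for the deletion (del.) and transgene (tg.) lines. Bcl2a1b holds 64.2 to 66.5% in every cDC2 library and 42.6 to 49.4% in every cDC1 library.

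Of the other pro-survival genes, Mcl1 averaged 913 ± 86.0 CPM in control cDC2 and 845 ± 33.2 CPM in control cDC1 (SD, n = 4 each; log2 fold change 0.11, SE 0.08, adjusted p = 0.257). Bcl2 averaged 15.9 ± 1.35 CPM in control cDC2 and 13.5 ± 3.67 CPM in control cDC1 (adjusted p = 0.137). Bcl2l1 averaged 23.2 ± 3.55 CPM in control cDC2 and 28.6 ± 2.46 CPM in control cDC1 (adjusted p = 0.190). None of the 3 passed the test, and all had overlapping ranges.

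Among the pro-death members, Pmaip1 had 1436, 1465, 1417 and 1342 CPM in control cDC2, against 1039, 971, 509 and 537 CPM in control cDC1. It was 1.95-fold higher in cDC2 (log2 fold change 0.97, SE 0.17, adjusted p = 3.15e-05), with no overlap. The cDC1 values fell apart by line: the Cre- cDC1 libraries averaged 523 ± 19.7 CPM in the transgene line and 1005 ± 48.4 CPM in the deletion line (n = 2 each). This difference between the lines did not pass the test over all genes (log2 fold change -0.94, SE 0.23, adjusted p = 0.170), though it did with DESeq2 (adjusted p = 0.0247) and in a fit of these 4 libraries alone (adjusted p = 0.0384). No member passed between the lines' controls in either subset, where 0.129% of all genes were called in cDC1 (0.0456% higher and 0.0835% lower in the transgene line) and 0.137% in cDC2 (0.0835% higher and 0.0532% lower). At an unadjusted p under 0.05, 3 members (Pmaip1, Bcl2 and Bax) differed in cDC1 and none in cDC2, where 7.2% of all genes in cDC1 and 9.14% in cDC2 were under it.

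Bcl2l11 and Bax were lower in cDC2. Bcl2l11 had 41.4, 49.2, 44.5 and 45.6 CPM in control cDC2 and 71.6, 94.4, 64.1 and 69.6 CPM in control cDC1 (log2 fold change -0.72, SE 0.17, adjusted p = 0.00129). Bax had 58.5, 58.9, 60.7 and 56.7 CPM in control cDC2 and 78.3, 85.7, 95.2 and 104 CPM in control cDC1 (log2 fold change -0.62, SE 0.08, adjusted p = 1.31e-06). In both genes every cDC2 library was below every cDC1 library. Bbc3 (13.4 ± 2.44 CPM in control cDC2 and 13.2 ± 2.13 CPM in control cDC1, adjusted p = 0.915) and Bak1 (3.43 ± 0.331 and 4.38 ± 1.29 CPM in control cDC2 and cDC1, adjusted p = 0.325) did not pass. The pore former Bak1 was scarce, and its log2 fold change had an SE of 0.29, against 0.08 for Bax.

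The subset differences of Bcl2a1b, Pmaip1 and Bax were present again among Cre+ libraries of both lines, which were not part of the control comparison. Among Cre+ libraries of the deletion line, 4 members passed, where 56.1% of all genes did (29% higher and 27.1% lower). Bcl2a1b differed by a log2 fold change of 1.12 (SE 0.12, adjusted p = 3.23e-08), Pmaip1 by 0.78 (SE 0.16, adjusted p = 0.000305) and Bax by -0.79 (SE 0.08, adjusted p = 3.4e-08). Mcl1 passed as well, at 1024, 1235, 1144 and 1153 CPM in Cre+ cDC2 and 863, 971, 953 and 974 CPM in Cre+ cDC1 (log2 fold change 0.28, SE 0.08, adjusted p = 0.0049). Bcl2l11 did not, at 51.2, 103, 69.5 and 64.8 CPM in Cre+ cDC2 and 73.2, 99.9, 82.3 and 67.2 CPM in Cre+ cDC1 (log2 fold change -0.16, SE 0.17, adjusted p = 0.440). Without replicate 2 of Cre+ cDC2, the library with the 103 CPM, Bcl2l11 passed (log2 fold change -0.38, adjusted p = 0.0472).

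Among Cre+ libraries of the transgene line, 5 members passed, where 52.9% of all genes did (26.8% higher and 26% lower). Pmaip1 differed the most, at 1342, 1399, 1590.4 and 1597 CPM in Cre+ cDC2 and 483, 489, 699 and 455 CPM in Cre+ cDC1, which is 2.79-fold (log2 fold change 1.48, SE 0.17, adjusted p = 1.06e-07). Bcl2a1b (1.02, SE 0.12, adjusted p = 1.65e-07), Bax (-0.68, SE 0.08, adjusted p = 3.8e-07) and Mcl1 (0.28, SE 0.08, adjusted p = 0.00531) passed with no overlap. Bak1 passed at -0.75 (SE 0.29, adjusted p = 0.0336) with overlapping ranges. Replicate numbers were taken to pair the subsets in these libraries, by a chosen cut on r, though the labels give no pairing. With the replicate number as a block, Bak1 no longer passed (adjusted p = 0.0767) and Bcl2l11 did (log2 fold change -0.32, adjusted p = 0.0384, against -0.34 and 0.109 without the block). Bcl2l11 passed as well without replicate 3 of Cre+ cDC1 (log2 fold change -0.47, adjusted p = 0.0282). Bak1 was also lost without any of 5 single libraries, cDC1 Cre+ 2 or 4 or cDC2 Cre+ 1, 2 or 4 (adjusted p of 0.0646 to 0.0979).

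**Figure D3:**
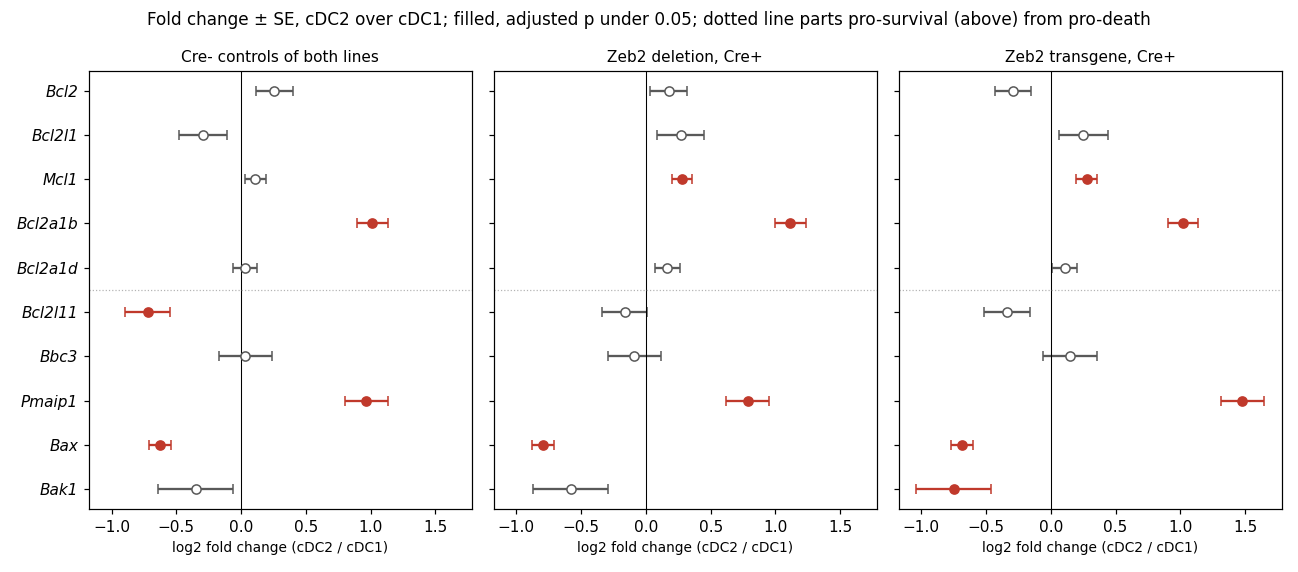
Log2 fold change of cDC2 over cDC1 for the 10 members, with SE bars, in Cre- controls of both lines and in Cre+ libraries of each line. Filled points have an adjusted p under 0.05. Bcl2a1b and Pmaip1 are right of 0 and Bax is left of 0 in all 3 panels.

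Across the 8 groups, Bcl2a1b spanned 1.59 log2 units of group mean, the most of the pro-survival members, and Pmaip1 spanned 1.62, the most of the pro-death members. The order of Bcl2a1b was cDC2 with the deletion (341 ± 22.1 CPM), then the transgene cDC2 groups and the control cDC2 of the deletion line (244 to 279.5 CPM on average), then the 4 cDC1 groups (114 to 158 CPM). Its first group did not overlap the next, and the cDC2 groups did not overlap the cDC1 groups. The order of Pmaip1 ended with the transgene line's cDC1, at 531 ± 113 CPM in Cre+ and 523 ± 19.7 CPM in Cre-. By Pearson's r over the 8 group means, among 6458 genes spanning at least 1 log2 unit, the genes most like Bcl2a1b were Dnajc28 (0.994), Gm14325 (0.993) and Dennd6a (0.993). Those most like Pmaip1 were Olr1 (0.988), Nuak1 (0.986) and Bcor (0.984). With 8 points dominated by the subset difference such values are common: 20.2% of these genes had an r above 0.9 with Bcl2a1b and 6.33% with Pmaip1.

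**Figure D4:**
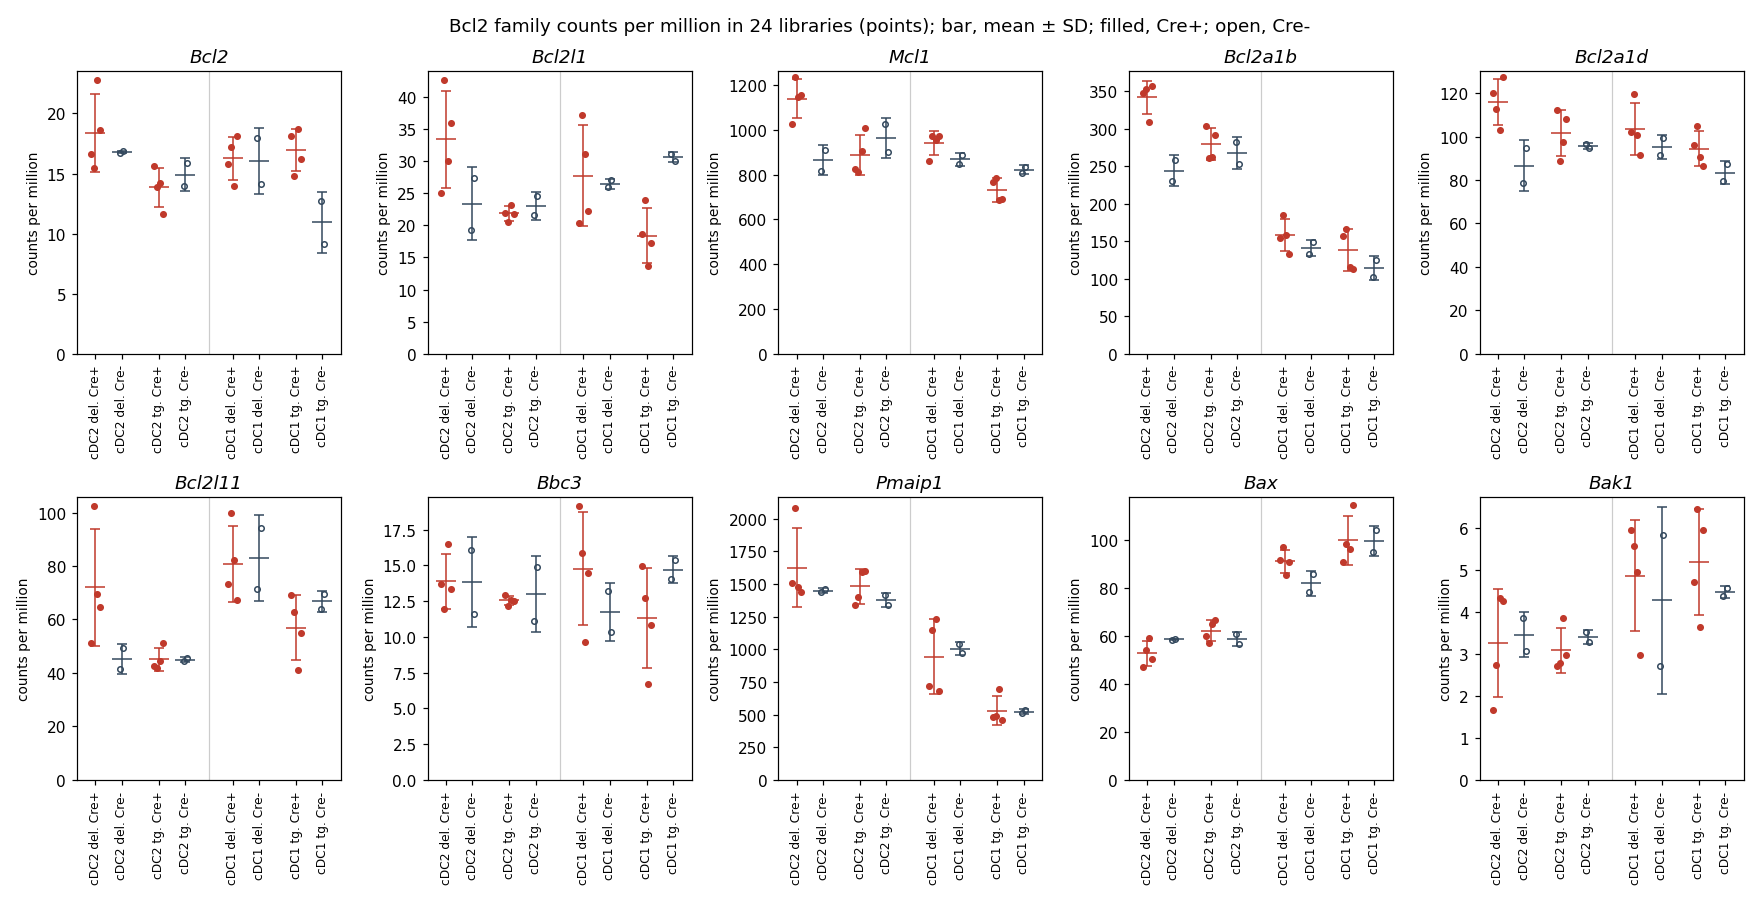
CPM of the 10 members in each of the 24 libraries, with 1 point per library and the mean ± SD as a bar. Pro-survival genes are in the top row and pro-death genes in the bottom row, and within each subset and line (del., deletion; tg., transgene) Cre+ stands left of Cre-. The cDC2 libraries with the deletion are above their controls for Mcl1, Bcl2a1b, Bcl2a1d and Bcl2l11, of which Mcl1 and Bcl2a1d passed the test. The cDC1 libraries with the transgene are above their controls for Bcl2 and below them for Bcl2l1 and Mcl1, of which Mcl1 did not pass. The share of all genes so separated was not counted.

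In cDC2 with the Zeb2 deletion, Mcl1 and Bcl2a1d rose, both pro-survival, and no pro-death member passed in either direction. That made 2 of 10 members called, where 5.21% of all genes were called (2.33% higher and 2.88% lower). The median log2 fold change was 0.42 over the 5 pro-survival members, 0.00 over the 5 pro-death members and 0.01 over all genes tested. The 0.42 was the value of Bcl2a1d, and 2 of these 5 pro-survival members are A1 copies that share reads. The largest estimate of the 10 was that of pro-death Bcl2l11 (0.67), which did not pass. The ratio of the pro-survival to the pro-death sum per kb overlapped, at 1.15 to 1.62 in Cre+ and 1.07 to 1.20 in Cre- libraries.

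Mcl1, whose protein is short-lived, had 1024, 1235, 1144 and 1153 CPM in Cre+ cDC2, against 816 and 912 CPM in Cre- cDC2. All Cre+ libraries were above both controls, and Mcl1 was 1.32-fold higher (log2 fold change 0.40, SE 0.10, adjusted p = 0.0179). Bcl2a1d had 120.0, 113, 103 and 128 CPM in Cre+ cDC2 and 78.5 and 94.9 CPM in Cre- cDC2, without overlap (1.34-fold, log2 fold change 0.42, SE 0.12, adjusted p = 0.0432). Both calls were lost when either control was left out. Without Cre- replicate 1, the lower control, Mcl1 had a log2 fold change of 0.32 and Bcl2a1d of 0.29. Without Cre- replicate 2 these were 0.48 and 0.56. Mcl1 was just over the threshold without Cre+ replicate 2 (adjusted p = 0.0525). Bcl2a1d was also lost without Cre+ replicate 1, 2 or 4 (adjusted p of 0.0660 to 0.108). Fitted on these 6 libraries alone, neither passed (adjusted p of 0.0530 for Mcl1 and 0.0851 for Bcl2a1d), and with no low-count filter Bcl2a1d did not (adjusted p = 0.0594).

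The other A1 copies lay on the same side. Bcl2a1b had 347, 353, 309 and 357 CPM in Cre+ cDC2 and 229.6 and 259 CPM in Cre- cDC2, again without overlap, but narrowly failed the test (log2 fold change 0.48, SE 0.15, adjusted p = 0.0569). It passed on these libraries alone (adjusted p = 0.0254). Bcl2a1a, outside the 10 members, had 71.4, 76.2, 61.6 and 69.2 CPM in Cre+ cDC2 and 39.4 and 49.3 CPM in Cre- cDC2, and passed at 1.57-fold (log2 fold change 0.65, SE 0.13, adjusted p = 0.00395). Summed as 1 gene, the A1 copies rose by 0.49 on the log2 scale (adjusted p = 0.0227). The sum does not turn on which copy a shared read was given to. If shared reads were dropped, it could still depend on the mix of copies, since the share of unique windows differs by copy. Bcl2 (18.4 ± 3.25 CPM in Cre+ and 16.8 ± 0.107 CPM in Cre-, adjusted p = 0.771) and Bcl2l1 (33.4 ± 7.59 and 23.4 ± 5.73 CPM in Cre+ and Cre-, adjusted p = 0.233) did not pass.

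On the pro-death side, Bcl2l11 had 51.2, 103, 69.5 and 64.8 CPM in Cre+ cDC2 and 41.4 and 49.2 CPM in Cre- cDC2. The groups did not overlap and the estimate was larger than that of Mcl1 (log2 fold change 0.67), but the SE of 0.22 left it short of the threshold (adjusted p = 0.0825). It passed with DESeq2 (adjusted p = 0.0348) and without Cre+ replicate 1 (adjusted p = 0.0309). Pmaip1 had 1508, 2083, 1478 and 1436 CPM in Cre+ cDC2 and 1436 and 1465 CPM in Cre- cDC2 (log2 fold change 0.16, SE 0.20, adjusted p = 0.738). Bax averaged 52.7 ± 5.15 CPM in Cre+ and 58.7 ± 0.227 CPM in Cre- (log2 fold change -0.15, adjusted p = 0.475), Bbc3 13.9 ± 1.92 and 13.8 ± 3.17 CPM (adjusted p = 0.998), and Bak1 3.25 ± 1.29 and 3.46 ± 0.544 CPM (adjusted p = 0.932). Replicate 2 of Cre+ cDC2 held the highest value of its group for Mcl1, Bcl2l1, Bcl2l11 and Pmaip1, and also the highest sum of the 12 early response and heat shock genes of all 24 libraries (27411 CPM). The part of these genes in the result was not tested. Over the groups that sum overlapped, at 21241 to 27411 CPM in Cre+ and 22262 to 24938 CPM in Cre- cDC2 of this line.

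Some marker genes of other cells moved with this comparison. The 5 B cell markers found in the files summed to 195 to 251 CPM in Cre+ cDC2 and 57.3 to 71.2 CPM in Cre- cDC2, and 1 of 4 tested passed. That was Ms4a1 (163 to 212 CPM in Cre+ and 12.1 to 22.5 CPM in Cre-), while Cd79a was at most 7.62 CPM in Cre+ and 6.46 CPM in Cre-, and Cd79b had 20.7 to 34.7 CPM in Cre+ and 40.4 to 40.8 CPM in Cre-. The 6 NK cell markers summed to 158 to 229 CPM in Cre+ and 97.7 to 131 CPM in Cre-, nearly all of it Klrd1, with Ncr1 at 0 in every library of both groups. The 6 monocyte markers summed to 997 to 1235 CPM in Cre+ and 2847 to 3569 CPM in Cre-, led by Lyz2, and 3 of 6 passed as lower. The 8 cDC1 markers summed to 146 to 175 CPM in Cre+ and 189 to 216 CPM in Cre-, with 1 of 8 higher and 2 lower, among them Clec9a at 1.27 to 3.33 CPM in Cre+ and 11.9 to 17.6 CPM in Cre-. Of the 8 cDC2 markers 2 passed as lower, Clec12a (46.7 to 58.5 CPM in Cre+ and 88.4 to 100.6 CPM in Cre-) and Cx3cr1 (15.9 to 27.1 CPM in Cre+ and 74.0 to 109.8 CPM in Cre-). Clec12a was the highest of these 8 in every cDC1 group, so it does not mark cDC2 alone. Of the 6 red pulp macrophage markers, which summed to 397 to 690.3 CPM in Cre+ and 464 to 486 CPM in Cre-, Slc40a1 passed as higher. The part of these cells in the family's changes was not tested.

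In cDC2 with the deletion, 6 of 72 pathway genes tested passed (8.33%), where 5.21% of all genes did. Of 13 other family genes tested 1 rose (Bcl2a1a). Of 18 caspases, inhibitors and mitochondrial factors 1 rose, the effector caspase Casp6 (62.2 ± 3.00 CPM in Cre+ and 45.3 ± 1.63 CPM in Cre-, log2 fold change 0.46, adjusted p = 0.0104), and 1 fell, Birc5, which encodes survivin and is a gene of dividing cells (15.4 ± 2.4 and 31.0 ± 0.403 CPM in Cre+ and Cre-, log2 fold change -1.01, adjusted p = 0.00408). Of 14 death receptor genes none passed. Of 13 p53 targets 1 fell, Aen, which encodes a nuclease (log2 fold change -0.56, adjusted p = 0.0309). Of 14 transcription regulators of the family 2 fell: the cell cycle factor E2f1 (24.0 ± 4.12 CPM in Cre+ and 46.6 ± 4.66 CPM in Cre-, log2 fold change -0.96, adjusted p = 0.000238) and Nfkb1, an NF-kappaB subunit (403 ± 52.0 and 577 ± 26.4 CPM in Cre+ and Cre-, log2 fold change -0.52, adjusted p = 0.0127).

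In cDC1 with the deletion no member passed, where 0.0228% of all genes, 3 in number, were called, all higher. None of the 10 had an unadjusted p under 0.05 either, where 4.81% of all genes did. Log2 fold changes of the members lay between -0.09 (Pmaip1) and 0.33 (Bbc3). The spread among Cre+ libraries was wide for the BH3-only genes: Pmaip1 had 716, 1149, 1230.2 and 682 CPM in Cre+ cDC1, on both sides of the 1039 and 971 CPM in Cre- cDC1. No gene of the 5 pathway lists passed there. The difference of the deletion effect between cDC2 and cDC1 passed for none of the 10 members, where 1.08% of all genes passed (0.585% higher and 0.494% lower). It was 0.71 for Bcl2l11 (SE 0.30, adjusted p = 0.298), 0.29 for Mcl1 (SE 0.14, adjusted p = 0.368) and -0.31 for Bax (SE 0.15, adjusted p = 0.354), and these 3 had an unadjusted p under 0.05, as did 13.6% of all genes. It passed for Bcl2a1a (0.74, SE 0.18, adjusted p = 0.0461), for Aen (-0.99, adjusted p = 0.0236) and for E2f1 (-0.98, adjusted p = 0.0228).

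**Figure D5:**
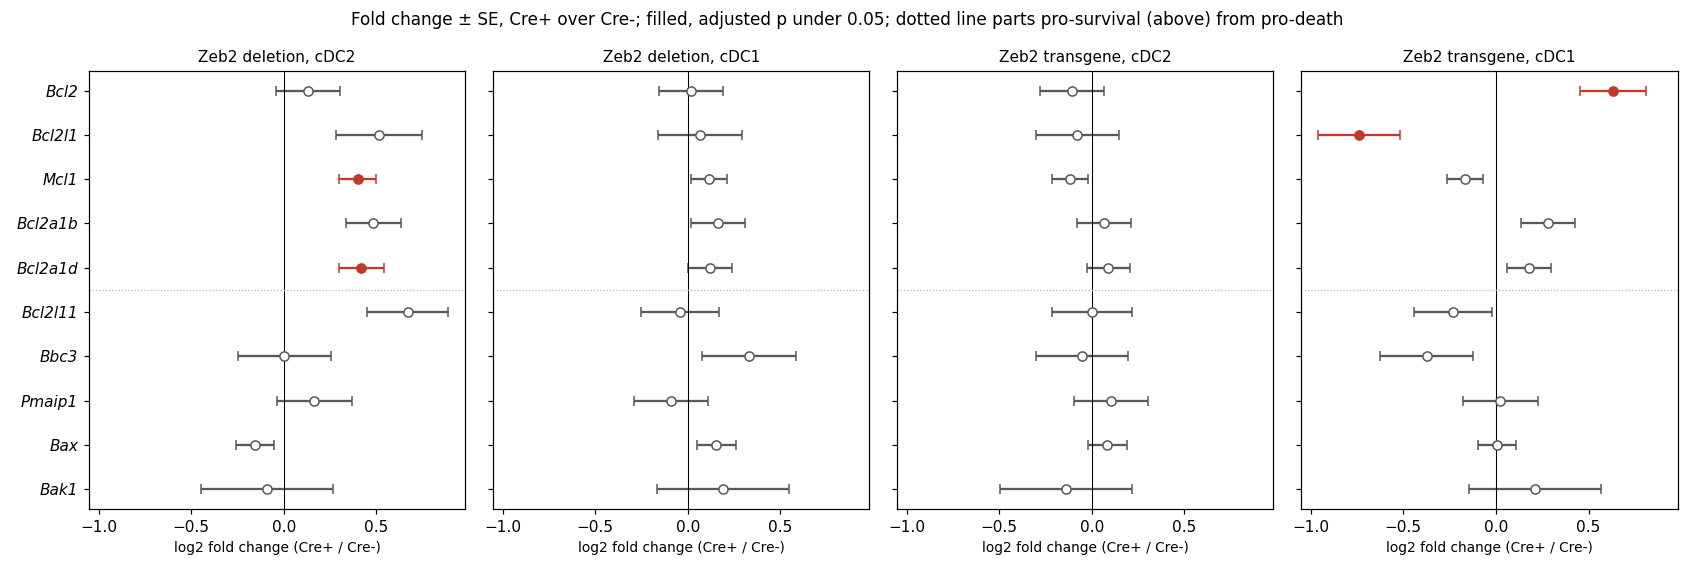
Log2 fold change of Cre+ over Cre- for the 10 members, with SE bars, in each subset and line. Filled points have an adjusted p under 0.05: Mcl1 and Bcl2a1d in cDC2 with the deletion, and Bcl2 and Bcl2l1 in cDC1 with the transgene.

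In cDC1 with the Zeb2 transgene, Bcl2 rose and Bcl2l1 fell, so the 2 pro-survival genes called went opposite ways. That was 2 of 10 members, where 7% of all genes were called (3.58% higher and 3.42% lower). The median log2 fold change was 0.18 over the pro-survival members, 0.00 over the pro-death members and 0.02 over all genes.

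Bcl2, at chr1:106538178-106714274 on the minus strand, had 18.1, 14.8, 18.7 and 16.2 CPM in Cre+ cDC1, against 12.7 and 9.11 CPM in Cre- cDC1. The ranges did not overlap, and Bcl2 was 1.55-fold higher (log2 fold change 0.63, SE 0.18, adjusted p = 0.0333). The 9.11 CPM of Cre- replicate 2 was the lowest Bcl2 value of all 24 libraries, and without it the log2 fold change was 0.42 (adjusted p = 0.388). The Cre- cDC1 libraries of this line averaged 10.9 ± 2.57 CPM and those of the deletion line 16.1 ± 2.74 CPM (adjusted p = 0.532). The Cre+ mean was 17.0 ± 1.78 CPM. Without Cre+ replicate 1 or 3, the adjusted p of Bcl2 was 0.0698 and 0.0735.

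Bcl2l1, at chr2:152780668-152831728 on the minus strand, had 18.7, 23.9, 13.6 and 17.2 CPM in Cre+ cDC1, against 31.2 and 30.1 CPM in Cre- cDC1. Every Cre+ library was below both controls, and Bcl2l1 was 1.67-fold lower (log2 fold change -0.74, SE 0.22, adjusted p = 0.0453). Leaving out single libraries gave log2 fold changes of -0.89 to -0.62, but the call was lost without any of 5 of them, Cre+ 1, 3 or 4 or either control (adjusted p of 0.0765 to 0.201). It was also lost when these 6 libraries were fitted alone (adjusted p = 0.0611), as was Bcl2 (adjusted p = 0.112).

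The abundant members did not pass. Mcl1 had 767, 786, 685 and 689 CPM in Cre+ cDC1 and 809 and 835 CPM in Cre- cDC1, all Cre+ libraries lower (log2 fold change -0.17, SE 0.10, adjusted p = 0.359). Bcl2a1b averaged 138 ± 27.7 CPM in Cre+ and 114 ± 16 CPM in Cre- (log2 fold change 0.28, adjusted p = 0.301), and Bcl2a1d 94.5 ± 7.99 and 83.5 ± 5.46 CPM (adjusted p = 0.441). Of the pro-death members, Pmaip1 averaged 531 ± 113 CPM in Cre+ and 523 ± 19.7 CPM in Cre- (adjusted p = 0.972) and Bax 99.98 ± 10.2 and 99.7 ± 6.35 CPM (adjusted p = 0.994). Bcl2l11 (log2 fold change -0.23, adjusted p = 0.608), Bbc3 (-0.38, adjusted p = 0.439) and Bak1 (0.21, adjusted p = 0.806) had overlapping ranges.

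Of the 72 pathway genes, 9.72% were called in these cells, where 7% of all genes were. Of 13 other family genes 3 fell: Bid, the BH3-only protein cut by caspase-8 (66.8 ± 7.50 CPM in Cre+ and 88.3 ± 4.39 CPM in Cre-, log2 fold change -0.40, adjusted p = 0.0368), the BH3-only gene Bmf (18.9 ± 6.66 and 32.2 ± 0.677 CPM in Cre+ and Cre-, log2 fold change -0.77, adjusted p = 0.025) and Bcl2l14 (34.2 ± 8.92 and 78.9 ± 12.8 CPM in Cre+ and Cre-, log2 fold change -1.20, adjusted p = 0.0182). Casp6 fell by 0.85 on the log2 scale (76.2 ± 9.60 CPM in Cre+ and 138 ± 1.65 CPM in Cre-, adjusted p = 3.68e-06), and Birc5 rose by 0.75 (adjusted p = 0.0329), out of 18 genes. Among 14 death receptor genes the receptor Fas fell (3.58 ± 1.55 CPM in Cre+ and 9.86 ± 0.535 CPM in Cre-, log2 fold change -1.47, adjusted p = 0.00245) and the initiator caspase Casp8 rose (84.3 ± 2.30 and 66.2 ± 7.77 CPM in Cre+ and Cre-, log2 fold change 0.35, adjusted p = 0.016). None of 13 p53 targets and none of 14 transcription regulators passed.

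The markers of cell identity moved in the same comparison. The cDC1 markers summed to 4091 to 5514 CPM in Cre+ and 6858 to 8349 CPM in Cre- cDC1 of the transgene line, and 4 of 8 passed as lower. The cDC2 markers summed to 275 to 471 CPM in Cre+ and 210.1 to 213 CPM in Cre-, and 6 of 8 passed as higher. The red pulp macrophage markers summed to 259 to 485 CPM in Cre+ and 154 to 185 CPM in Cre-, and 3 of 6 passed as higher. The monocyte markers summed to 474 to 548 CPM in Cre+ and 255 to 469 CPM in Cre-, with 1 of 6 higher, and the B cell markers to 10.6 to 24.4 CPM in Cre+ and 32.6 to 49.7 CPM in Cre-, with 1 of 4 tested lower. The pDC markers summed to 67.5 to 83.2 CPM in Cre+ and 101 to 107 CPM in Cre-, with 1 of 6 lower (Ccr9), and the NK cell markers to 1.15 to 3.80 CPM in Cre+ and 0.788 to 5.30 CPM in Cre-, with 1 of 6 lower (Prf1). Of the genes that fell here, Bid, Bcl2l14 and Casp6 also had lower levels in cDC2 controls than in those of cDC1 (log2 fold changes of -1.13, -2.69 and -1.63, adjusted p of 1.12e-09, 2.85e-08 and 1.71e-13), and these comparisons share the Cre- cDC1 libraries of the transgene line. Bmf was higher in control cDC2 (0.89, adjusted p = 0.000134). The part of other cells in these changes was not tested. The share of Bcl2a1b among the A1 copies was 49.4, 48.5, 42.8 and 44.6% in the 4 Cre+ libraries and 43.4 and 45.0% in Cre-. All were below the cDC2 range of 64.2 to 66.5%, and a partial mixture with cDC2 was not tested.

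In cDC2 with the transgene no member passed, where 0.327% of all genes were called (0.114% higher and 0.213% lower), and none had an unadjusted p under 0.05, where 8.69% of all genes did. Log2 fold changes of the members lay between -0.14 (Bak1) and 0.10 (Pmaip1), with SEs of 0.10 to 0.36. Mcl1 averaged 886 ± 90.6 CPM in Cre+ and 962 ± 88.3 CPM in Cre-, and Bcl2l11 45.0 ± 4.29 and 45.0 ± 0.808 CPM. No gene of the 5 pathway lists passed. The difference of the transgene effect between cDC2 and cDC1 passed for none of the 10 members, where 2.01% of all genes passed (0.82% higher and 1.18% lower). It was -0.74 for Bcl2 (SE 0.25, unadjusted p = 0.00664, adjusted p = 0.145), the 1 member with an unadjusted p under 0.05 (13% of all genes), and 0.66 for Bcl2l1 (SE 0.32, adjusted p = 0.386). It passed for Casp6 (0.94, adjusted p = 0.000535) and Fas (2.36, adjusted p = 0.00261).

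Of the 72 pathway genes tested between the control subsets, 63.9% were called, where 53.4% of all genes were, and the shares differed from list to list. Of 14 transcription regulators of the family 10 were higher and 2 lower in control cDC2, among them the NF-kappaB subunits Nfkb1 (log2 fold change 2.66, adjusted p = 2.25e-15) and Relb (2.17, adjusted p = 2.34e-09) as higher and Foxo1 (-0.54, adjusted p = 1.91e-05), a known activator of Bcl2l11, as lower. Of 13 p53 targets 4 were higher and 1 lower, with Sesn1 (2.54, adjusted p = 1.25e-12) and Sesn2 (1.68, adjusted p = 6.95e-10) in front. Of 18 caspases, inhibitors and mitochondrial factors 4 were higher and 7 lower, with Birc3, an inhibitor of apoptosis, higher (0.60, adjusted p = 2.52e-05) and Cycs, which encodes cytochrome c, lower (-1.23, adjusted p = 3.17e-10). Of 14 death receptor genes 6 were higher and 3 lower, led by the TNF receptor Tnfrsf1b (1.79, adjusted p = 4.95e-08) and Traf2 (1.26, adjusted p = 5.36e-08). Of 13 other family genes 4 were higher and 5 lower, with Bad among the lower (-1.05, adjusted p = 2.1e-08).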

How the data were processed

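The authors deposited raw counts of reads per gene, 1 table per library, and these counts were used as deposited. Per the submitters' processing notes the tools included FastQC 0.11.4, Trimmomatic 0.35, TopHat2 2.1.0 and SAMtools 0.1.18, with the mm10 build; the counting program, its annotation and its use of strand were not given in the sources used here. Rows that name no gene were left out of library sizes and tests; they held 10.43 to 15.68% of reads outside any gene and 0.9702 to 1.086% that were ambiguous.

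Genes were kept by filterByExpr (minimum count 10, total 15), scaled by TMM (factors 0.9245 to 1.074) and tested with edgeR 4.0.16 in R 4.3.3 by the quasi-likelihood test, with 1 mean per group over all 24 libraries and 11 contrasts. P-values were adjusted by Benjamini-Hochberg over all 13166 genes, at a threshold of 0.05. SDs are over libraries, and fitted log2 fold changes carry a small prior count. Each SE is the absolute log2 fold change divided by the square root of the test's F statistic. It is approximate, and least reliable for estimates near 0. The procedure was run on simulated data, with larger changes than those of the members called between Cre+ and Cre- libraries. That run does not show how well changes as small as these are found. Alternatives were DESeq2 1.42.0 and its size factors, no filter, a filter of 5 CPM in 4 libraries, a replicate block, the compared libraries alone, the A1 copies summed, and each library left out. Replicates of a group differed beyond sampling noise in all 28 pairs (chi-square per gene 10.1 to 51.1).

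Replicate numbers were taken to pair the subsets where every same-numbered pair of libraries deviated together (r over 0.1), which held in Cre+ libraries of the transgene line (r of 0.101 to 0.111). This cut was a choice, the labels give no pairing, and pairs of differing numbers were not compared. In Cre+ libraries of the deletion line r was 0.0764 to 0.170, and numbers did not pair Cre+ with Cre- (r of -0.100 to 0.0696). Lengths were unions of GENCODE vM21 exons. The members and gene lists were chosen with earlier results of these data known, and the 12 early response genes after their values were seen. All members are named, and from each pathway list up to 4 passing genes with the smallest p per comparison, or genes so named in another comparison.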

Additional observations from a re-analysis of the deposited data

Results flagged for a closer look

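In 40 groups of 4 libraries, 1 for each member and Cre+ group, the highest or lowest library was compared with the rest, and 2 stood apart, where chance gives about 1 in 20. Both were Pmaip1. Replicate 2 of Cre+ cDC2 in the deletion line had 2083 CPM, and the nearest of its group had 1508 CPM. Replicate 3 of Cre+ cDC1 in the transgene line had 699 CPM, and the nearest of its group had 489 CPM. Each of these libraries also had the highest sum of the 12 early response and heat shock genes in its group, 27411 CPM and 13037 CPM. The part of those genes in the Pmaip1 values was not tested.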

How the results depend on the processing

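No fold change of a member that passed changed sign under any alternative. Members called in cDC2 with the deletion (2) numbered 1 with no filter (Mcl1), 1 with the compared libraries alone (Bcl2a1b, with Mcl1 and Bcl2a1d both lost), and 4 with the replicate block and with DESeq2, where Bcl2a1b (adjusted p of 0.0297 and 0.0233) and Bcl2l11 (0.0209 and 0.0348) were added. For Cre+ against Cre- this block tied same-numbered libraries of a line, although numbers did not pair Cre+ with Cre- (r of -0.100 to 0.0696). In cDC1 with the transgene (2) the compared libraries alone gave 0, and between cDC1 line controls (0) they and DESeq2 gave 1. Of all genes, calls in cDC1 with the deletion (3) numbered 1 with the compared libraries alone and 8 with DESeq2; in cDC2 with the transgene (43), 71 with no filter, 69 with the block and 130 with DESeq2; in cDC1 with the transgene (922), 550 alone; for the difference of deletion effects (142), 351 with DESeq2; for that of transgene effects (264), 400 with the block and 471 with DESeq2. Between cDC2 line controls (18) they numbered 30 with no filter, 32 with the block, 85 alone and 70 with DESeq2, and between cDC1 line controls (17) 6 alone and 51 with DESeq2. The cause was not tested.

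With single libraries left out, members called numbered 0 to 3 in cDC2 and 0 to 0 in cDC1 with the deletion, 0 to 0 in cDC2 and 0 to 2 in cDC1 with the transgene, 4 to 5 between control subsets, 4 to 5 and 4 to 6 between Cre+ subsets of the deletion and transgene lines, and 0 to 0 in both differences of effects and both line control comparisons. All genes called numbered 142 to 673, 1 to 4, 18 to 45, 476 to 983, 6341 to 6532, 6899 to 7104, 6431 to 6725, 21 to 161 and 138 to 335 in that order, then 9 to 12 between cDC2 and 8 to 12 between cDC1 line controls. With 2 controls per group, leaving one out assumes that the lone control varies like the other groups.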
